A study of Mus musculus with 9 samples.

Results

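The DNA that stays with the insoluble nuclear material after high-salt extraction (the HRS fraction, for high-salt recovered sequences) was compared with unfractionated genomic DNA along chromosomes 1 to 19 of mouse embryonic stem cells. The comparison used 6 of the 9 libraries of the series, 3 of the HRS fraction (HRS-ES1, HRS-ES2 and HRS-ES3, here replicates 1, 2 and 3) and 3 of input genomic DNA (titled D0, D12 and D21). Counts of StyI restriction fragments were summed by fragment midpoint in windows of 100 kb and 1 Mb on the mm9 build, chosen by library title and position alone. All 9 libraries came from the line E14Tg2a of 129P2 background, kept undifferentiated with LIF, and none carried a further treatment or allele. The other 3 libraries hold the Loop fraction, the DNA released from the same kind of preparation, and are given beside some values. The labels do not explain D0, D12 and D21, so the inputs were taken as 1 group, and nothing in them ties the libraries of a group to different cultures, so the p-values speak only for the spread among these libraries, which may be technical. Because genomic DNA was counted, expression markers could not be used to check the cell type.

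In this kind of assay nuclei are stripped of soluble proteins with concentrated salt, the DNA is cut with a restriction enzyme, and the fragments that remain with the insoluble residue are separated from those that are released. Large transcribed and untranscribed domains, nuclear bodies such as histone locus bodies and speckles, and contacts with the nuclear lamina are known to give the genome of embryonic stem cells a coarse spatial order. The retained DNA is counted by a short tag at a fragment end, so a window with many StyI sites has many fragments that can be counted.

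Over chromosomes 1 to 19, HRS replicates 1, 2 and 3 had 50.4, 51.3 and 38.3 M counts, and the inputs had 61.0 (D0), 55.5 (D12) and 54.1 M (D21). The median tested 100 kb window held between 1156 counts in the library with the lowest median and 2244 in the one with the highest. HRS replicate 3, the shallowest library, stood apart: chromosome 8 took 6.68% and chromosome 11 8.88% of its counts, against 5.62% to 5.71% and 6.94% to 7.12% in the other HRS libraries and 5.58% to 5.83% and 6.52% to 7.02% in the inputs. It differed beyond these chromosomes too. The quartile of windows with the most StyI fragments held 44.7% of its counts in tested windows. That share was 41.2% and 41.5% in HRS replicates 1 and 2 and 41.7% to 43.1% in the inputs. A count was found for 77.3% of fragments in HRS replicate 3, against 82.0% and 82.2% in the other HRS libraries. The part of HRS replicate 3 in the domain values below is given beside them as counts without that library.

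Retention was uneven over long stretches of the chromosomes. Of 23826 tested windows of 100 kb, 6109 (25.6%) were higher in HRS than in input and 4098 (17.2%) were lower, by edgeR's quasi-likelihood test (threshold 0.05 on the p adjusted by Benjamini-Hochberg). The gains were larger than the losses. Higher windows had a median fold of 1.44 and lower windows a median fold of 1.24. A difference over 1.5-fold was found in 2612 higher and 55 lower windows, and one over 2-fold in 551 higher windows and in 1 lower window. At 1 Mb, 620 (25.7%) of 2415 windows were higher and 432 (17.9%) lower, and 76 higher windows but 2 lower ones passed 1.5-fold. These folds are relative to a TMM scaling that puts the median log2 ratio of all tested 100 kb windows near 0. With library totals as the scaling that median shifted to -0.17, and 34.3% of the called windows were higher, against 59.9% with TMM. The gap in size narrowed as well: higher windows then had a median fold of 1.39 and lower windows one of 1.32, and 1419 higher and 717 lower windows passed 1.5-fold. No window called under both scalings changed direction.

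Runs of at least 5 adjoining 100 kb windows called in the same direction, with no gap, were taken as domains. There were 372 gained domains, which covered 273.5 Mb (11.5% of tested windows), and 250 lost domains, which covered 198.8 Mb (8.34%). This balance depends on the scaling: there were 203 gained and 545 lost domains with library totals, and 221 and 563 with scaling within each chromosome. Domains held 44.8% of all higher windows and 48.5% of all lower windows, and the rest lay in shorter runs or stood alone. The median gained domain was 600 kb long and the longest 2400 kb. The median lost domain was 700 kb long and the longest 2600 kb. At least 1 Mb was reached by 62 gained and 54 lost domains. The mean log2 ratio ranged from 0.28 to 1.63 over gained domains, with a median fold of 1.55, and from -0.53 to -0.22 over lost domains, with a median fold of 1.27. With the TMM scaling a mean over 1.5-fold was seen in 224 gained domains and in 0 lost ones. With library totals the same 372 gained domains ranged from 0.11 to 1.45 and the same 250 lost domains from -0.71 to -0.40, the median folds were 1.37 and 1.43, and 80 gained and 36 lost domains passed 1.5-fold. The span of the means was wider over gained than over lost domains under both scalings, but which direction had the larger median was set by the scaling. Since the domains were built from the calls, these values describe them and test nothing.

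**Figure D1:**
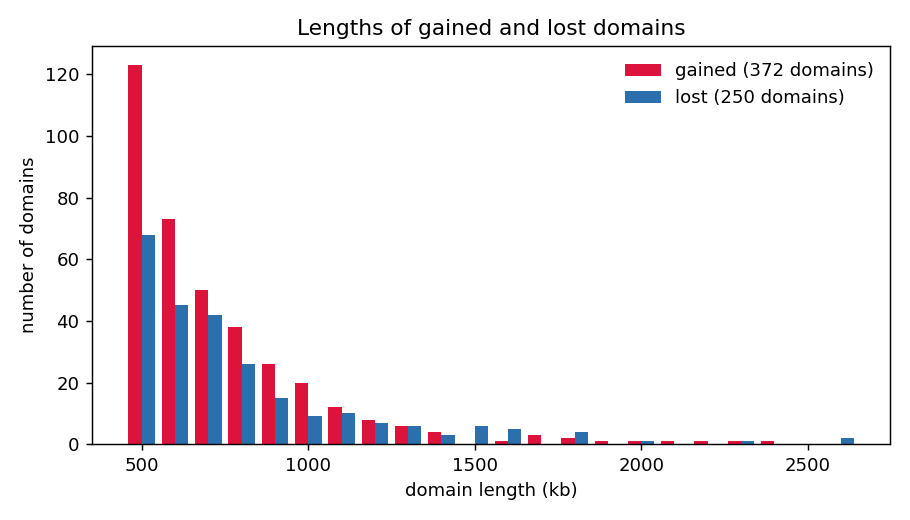
Number of domains (vertical axis) by length in kb (horizontal axis) for 372 gained (red) and 250 lost (blue) domains of HRS against input. The shortest length allowed, 500 kb, is the commonest in both directions (123 gained, 68 lost), and the tail reaches 2400 kb for gained and 2600 kb for lost domains.

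As a share of all counts on these chromosomes, the gained domains held 20.9%, 20.4% and 24.0% in HRS replicates 1, 2 and 3. They held 15.8%, 14.9% and 14.5% in inputs D0, D12 and D21, and 15.0%, 15.2% and 15.7% in the Loop replicates. The lost domains held 7.28%, 7.69% and 6.32% in the HRS replicates, 9.88%, 10.5% and 10.6% in the inputs and 10.4%, 10.4% and 10.2% in the Loop replicates. The HRS libraries lay on one side of every input and every Loop library in both sums. Single domains were described by normalised counts (CPM, counts scaled to the library's total over chromosomes 1 to 19). In CPM, HRS and input did not overlap in 362 of 372 gained and 250 of 250 lost domains. The domains were chosen by calls on these same libraries, so the separation from input, here and in the sums, was largely built in. The share over all windows is not given here. CPM also leaves out the TMM factors, and with library totals the median log2 ratio of all tested windows was -0.17. HRS replicate 3 was the highest of the HRS libraries in 260 of the 372 gained domains and the lowest in 239 of the 250 lost ones. Without it, 413 gained and 305 lost domains were found, so the counts did not fall without that library. They fell when single inputs were left out: without D12 there were 217 gained and 146 lost domains, and without D21 there were 167 gained and 221 lost. Without D0 there were 320 gained and 244 lost. Leaving out other HRS libraries lowered counts too, to 333 gained and 183 lost without HRS replicate 1. Without HRS replicate 2 there were 388 gained and 230 lost.

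In gained domains the mean log2 ratio was 0.07 in the window just outside the edge, 0.55 in the first window inside and 0.68 in the second. In lost domains it was -0.02 just outside, -0.30 in the first window inside and -0.35 in the second. The step at the edge follows from how domains were defined and is no measure of how sharp they are. Farther out, between 200 and 400 kb outside lost domains, the mean was 0.13 to 0.16 and the median 0.06 to 0.09. Outside gained domains the mean at 200, 300 and 400 kb was 0.06, 0.12 and 0.14, so a positive mean was not particular to lost domains. The median distance to the nearest domain of the other direction was 3050 kb for gained and 1700 kb for lost domains. Within 500 kb of one lay 64 of the 372 gained and 67 of the 250 lost domains, and 7 pairs adjoined with no window between them. Whether this spacing differs from that of domains placed at random was not tested.

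**Figure D2:**
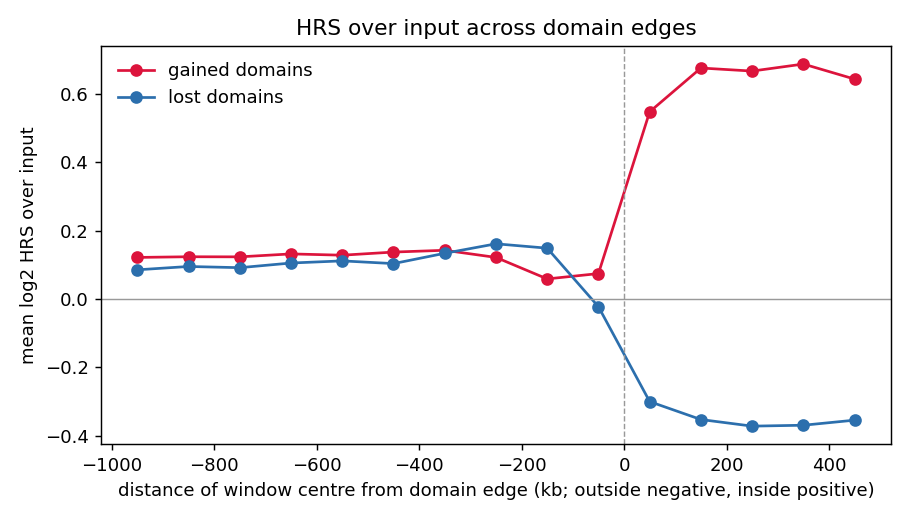
Mean log2 ratio of HRS over input (vertical axis) by distance of the 100 kb window from the domain edge in kb (horizontal axis; negative outside, positive inside) for gained (red) and lost (blue) domains. The mean steps from 0.07 to 0.55 at the edge of gained domains and from -0.02 to -0.30 at the edge of lost ones, then stays near its inner level.

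To place genes, StyI sites in RefSeq promoter sequences (GRCm38.p6, from 250 bases before to 50 after each gene's start) were matched by their spacing to fragment ends in the mm9 tables, without converting coordinates. StyI cuts CCNNGG where each N is A or T, a set of sites that reads the same on both strands. A site lay in 34.7% of 31396 promoters, and 97.3% of 12420 distinct sites were matched. A gene without its own site was counted in a domain only when its nearest matched neighbours on both sides lay in that domain. Genes near domain edges, and genes of sparse domains, are therefore missed more often, and a gene could be misplaced where the builds differ in order between its neighbours. The 6 promoters below show what anchors the named domains, 3 in gained and 3 in lost ones. The capitals mark StyI sites, each sequence runs 5′ to 3′ on the gene's strand, and all come from RefSeq. H4c4 encodes a replication-dependent histone H4 (chr13:23581318-23581617, plus strand). Tmem107 encodes a transmembrane protein of the ciliary transition zone (chr11:69070559-69070858, plus strand). Hmgn2 encodes a nucleosome-binding high-mobility-group protein (chr4:133967942-133968241, minus strand). Rbfox1 encodes a neuronal splicing regulator (chr16:7069585-7069884, plus strand, 1 of its starts). Hs3st4 encodes a heparan sulfate sulfotransferase (chr7:123982578-123982877, plus strand). Serpina1d encodes an alpha-1-antitrypsin of the liver (chr12:103773584-103773883, minus strand).
H4c4: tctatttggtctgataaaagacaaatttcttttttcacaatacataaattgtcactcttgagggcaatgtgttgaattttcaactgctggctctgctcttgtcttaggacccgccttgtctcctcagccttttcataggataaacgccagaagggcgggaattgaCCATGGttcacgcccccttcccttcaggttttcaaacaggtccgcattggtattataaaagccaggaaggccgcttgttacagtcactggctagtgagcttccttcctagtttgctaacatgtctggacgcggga
Tmem107: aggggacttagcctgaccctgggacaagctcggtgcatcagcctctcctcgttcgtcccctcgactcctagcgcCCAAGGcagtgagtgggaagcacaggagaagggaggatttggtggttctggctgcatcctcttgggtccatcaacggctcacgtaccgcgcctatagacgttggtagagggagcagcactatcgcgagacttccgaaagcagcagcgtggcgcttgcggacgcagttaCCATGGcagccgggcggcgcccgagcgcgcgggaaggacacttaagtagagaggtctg
Hmgn2: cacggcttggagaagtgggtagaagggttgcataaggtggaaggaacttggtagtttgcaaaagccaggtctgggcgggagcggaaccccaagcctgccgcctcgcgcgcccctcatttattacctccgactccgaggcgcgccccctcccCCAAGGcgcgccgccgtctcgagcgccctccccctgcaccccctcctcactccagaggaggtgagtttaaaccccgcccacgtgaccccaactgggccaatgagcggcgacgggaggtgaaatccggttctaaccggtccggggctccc
Rbfox1: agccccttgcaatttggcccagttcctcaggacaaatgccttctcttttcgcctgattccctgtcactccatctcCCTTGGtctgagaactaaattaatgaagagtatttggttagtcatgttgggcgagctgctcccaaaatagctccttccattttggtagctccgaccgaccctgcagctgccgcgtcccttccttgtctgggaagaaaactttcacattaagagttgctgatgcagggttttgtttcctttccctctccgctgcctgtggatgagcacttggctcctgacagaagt
Hs3st4: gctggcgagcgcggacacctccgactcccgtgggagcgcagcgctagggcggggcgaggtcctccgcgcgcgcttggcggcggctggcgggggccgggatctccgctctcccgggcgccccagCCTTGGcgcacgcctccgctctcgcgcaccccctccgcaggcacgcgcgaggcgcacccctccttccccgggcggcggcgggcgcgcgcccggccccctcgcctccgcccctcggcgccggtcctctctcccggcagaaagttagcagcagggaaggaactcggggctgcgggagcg
Serpina1d: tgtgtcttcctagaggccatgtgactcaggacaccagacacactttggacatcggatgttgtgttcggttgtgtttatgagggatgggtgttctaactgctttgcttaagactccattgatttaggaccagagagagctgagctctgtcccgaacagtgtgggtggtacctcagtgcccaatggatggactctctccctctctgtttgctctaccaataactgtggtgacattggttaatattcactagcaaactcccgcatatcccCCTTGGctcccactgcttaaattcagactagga
The matched fragment ends in mm9 were at position 23673354 of chromosome 13 for H4c4, 68884137 of chromosome 11 for Tmem107 and 133524002 of chromosome 4 for Hmgn2. They were at position 7069755 of chromosome 16 for Rbfox1, 131126217 of chromosome 7 for Hs3st4 and 105011823 of chromosome 12 for Serpina1d. Neither base composition nor the number of StyI sites sorted these 6 promoters by direction: the H4c4 promoter held 8 CG dinucleotides and 1 StyI site, and that of Hs3st4, in a lost domain, held 47 CG dinucleotides and 1 StyI site.

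Gained domains were dense in genes and lost domains sparse. On the chromosomes with genes placed, gained domains held 4632 protein-coding genes (17.3 per Mb), lost domains held 193 (1.02 per Mb), and the tested chromosomes held 20151 (8.78 per Mb). The count over all chromosomes needs no placement, so the domains are also compared under a single rule, by promoters with their own site. Of these there were 6.92 per Mb in gained domains, 0.564 in lost domains and 2.61 in all tested windows. A StyI site lay in 41.4% of the promoters counted in gained domains, 49.4% of those in lost domains and 34.3% of all. This measure may therefore not find the same part of promoters in each. No placed protein-coding gene was found in 143 of 236 lost domains, against 49 of 364 gained ones. Gained domains also held 223 of the 391 tRNA genes of the table, and lost domains held 0. All tRNA genes were counted through matched neighbours, a rule that misses more genes in sparse domains. There were 126 StyI fragments per window in gained, 135 in lost and 120 in all tested windows. The median promoter of protein-coding genes held 18 CG dinucleotides in gained domains (5010 promoters), 7 in lost domains (251 promoters) and 14 over all 20084 promoters of such genes.

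The same relation held across single windows. Of 18660 windows with no promoter placed by its own site, 20.1% were higher and 19.3% lower, with a median log2 ratio of -0.03. Of 3122 windows with 1 such promoter, 46.0% were higher and 8.10% lower (median 0.22). Of 802 windows with 2, 59.0% were higher and 4.86% lower (median 0.39). Of 364 windows with 3 or more, 72.8% were higher and 3.30% lower (median 0.63). Split by the number of StyI fragments, the median rose from the class with none to the class with 3 or more in each quartile of windows, from 0.02 to 0.52 in the quartile with the fewest fragments and from -0.09 to 0.69 in that with the most. Calls of loss did go with the number of fragments: from the quartile with the fewest to that with the most, 3.24%, 14.8%, 25.2% and 26.5% of windows were lower, and 21.6%, 24.9%, 28.2% and 28.1% were higher. The mean share of counts in the quartile with the fewest fragments was 13.7% in HRS and 13.5% in input (exact permutation test over libraries, p = 0.8). In the quartile with the most fragments it was 42.4% and 42.2%. This test compares shares of counts and cannot give a p under 0.1 with 3 libraries against 3, so nothing is concluded from it. The part of fragment number in the calls of loss was not tested.

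**Figure D3:**
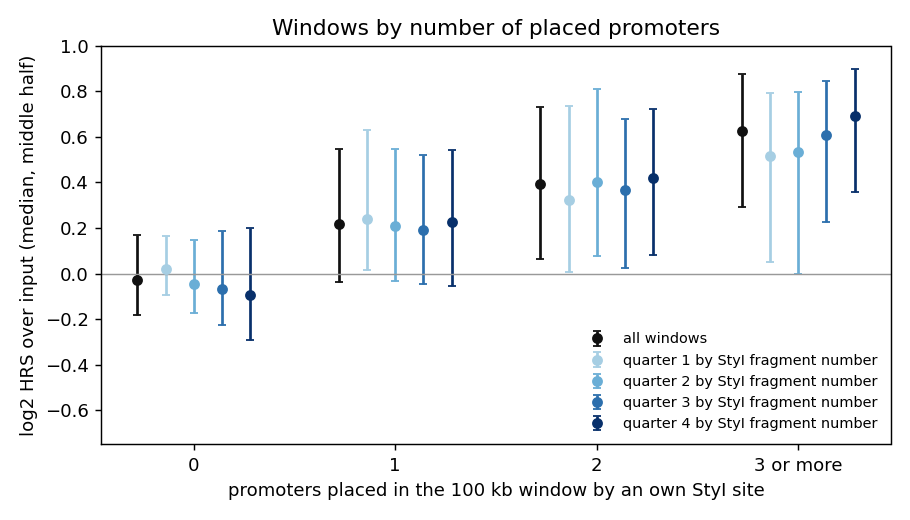
Median log2 ratio of HRS over input with its interquartile range (vertical axis) for 100 kb windows with 0, 1, 2 and 3 or more promoters placed by their own StyI site (horizontal axis). Black marks all windows and blue shades mark quartiles of windows by their number of StyI fragments; the median over all windows goes from -0.03 to 0.63.

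The highest gained domain was a stretch of the Hist1 cluster on chromosome 13, where replication-dependent histone genes are packed with tRNA genes (chr13:23200001-23900000, 700 kb). It held 747, 697 and 805 CPM in HRS replicates 1, 2 and 3, and 255, 247 and 244 CPM in the D0, D12 and D21 inputs. The Loop replicates held 222, 212 and 217 CPM. Every HRS library was far above every input, with a mean log2 ratio of 1.63. Lack of overlap here and in the other named domains was largely fixed by their choice from calls on these libraries. It tests nothing further. The domain held 30 histone genes, 45 tRNA genes and 15 vomeronasal receptor genes or pseudogenes of the Vmn1r family. Its strongest window carried Abt1, which encodes a basal transcription activator, at a log2 ratio of 2.62 (SE 0.18, adjusted p = 7.4e-06).

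A second Hist1 domain lay 1 Mb away from it (chr13:21100001-22200000, 1100 kb). HRS replicates held 992, 922 and 1028 CPM and inputs 412, 379.5 and 382 CPM, again without overlap, and the mean log2 ratio was 1.33. It held 23 histone genes, 59 tRNA genes, 13 olfactory receptor genes or pseudogenes and 5 Vmn1r genes or pseudogenes. Zfp184, a zinc finger gene, marked its strongest window at a log2 ratio of 2.18 (SE 0.13, adjusted p = 6.2e-06). The Hist2 cluster lay in the second longest gained domain (chr3:94300001-96600000, 2300 kb), with 10 histone genes, 25 tRNA genes, 3 U1 small nuclear RNA genes and the splicing factor gene Sf3b4. HRS replicates held 1910, 1847 and 2168 CPM there and inputs 1204, 1149 and 1088 CPM. All HRS libraries were above all inputs, by a mean log2 ratio of 0.91 that became 0.78 without HRS replicate 3.

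The longest gained domain was on chromosome 4 (chr4:131700001-134100000, 2400 kb), with 65 protein-coding genes. HRS replicates held 2602, 2474 and 3093 CPM and inputs 1784, 1704 and 1626 CPM, and the mean log2 ratio was 0.86. Among its genes were Lin28a, which encodes an RNA-binding protein of undifferentiated cells, the minor spliceosome RNA gene Rnu11, and 6 small nucleolar RNA genes. Hmgn2 marked its strongest window, where HRS replicates held 143, 137 and 190 CPM against 69.4, 70.4 and 63.9 CPM in the inputs.

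The second longest, on chromosome 3, held 32.2 protein-coding genes per Mb, against 27.1 in the longest. Of those next in length after these, with genes placed, 4 held more per Mb than the longest and 1 held fewer. The domain chr10:79100001-81200000 (2100 kb, mean log2 ratio 0.88) held 119 protein-coding genes (56.7 per Mb), among them the splicing factor gene Sf3a2 and the ribosomal protein gene Rps15. HRS replicates held 3783, 3711 and 4680 CPM there and inputs 2542, 2456 and 2388 CPM, with no overlap. The domain chr7:133200001-135200000 (2000 kb, 0.84) held 90 protein-coding genes (45 per Mb), of which 10 were zinc finger genes. The domain chr7:51500001-53300000 (1800 kb, 0.84) held 101 (56.1 per Mb), with Rpl13a and Rpl18 of the large ribosomal subunit among them and 7 small nucleolar RNA genes. The domain chr19:4600001-6400000 (1800 kb, 0.76) held 94 (52.2 per Mb), beside Malat1 and Neat1, the nuclear RNAs of speckles and paraspeckles, and the splicing factor gene Sf3b2. The domain chr19:45800001-47700000 (1900 kb) held 37 (19.5 per Mb) and was the weakest of the 8 longest, at 0.55. The domain chr18:33900001-36100000 (2200 kb) had a mean log2 ratio of 0.70, and its genes are not analysed here.

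On chromosome 11, whose share of counts was high in HRS replicate 3, the domain chr11:68500001-69000000 (500 kb) held 678, 701 and 1093 CPM in HRS and 375, 353 and 333 CPM in input. Replicate 3 was well above the other HRS libraries, and these too were above every input. The domain carried 18 tRNA genes, the ribosomal protein gene Rpl26 and the small nucleolar RNA gene Snord118, with Tmem107 at its strongest window (log2 1.93, SE 0.22, adjusted p = 7.56e-05). The 2 other domains of highest mean rested partly on single fragments. In chr7:87000001-87700000, 1 fragment held 83.9% of the counts of the window of Blm, a DNA helicase gene, and the mean log2 ratio of the domain fell from 1.12 to 0.63 without dominant fragments. In chr6:47400001-48100000, with 5 zinc finger genes, the strongest window held only 18 to 31 counts per HRS library and 3 to 7 per input, all in 1 fragment, and the mean went from 1.10 to 0.85.

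**Figure D4:**
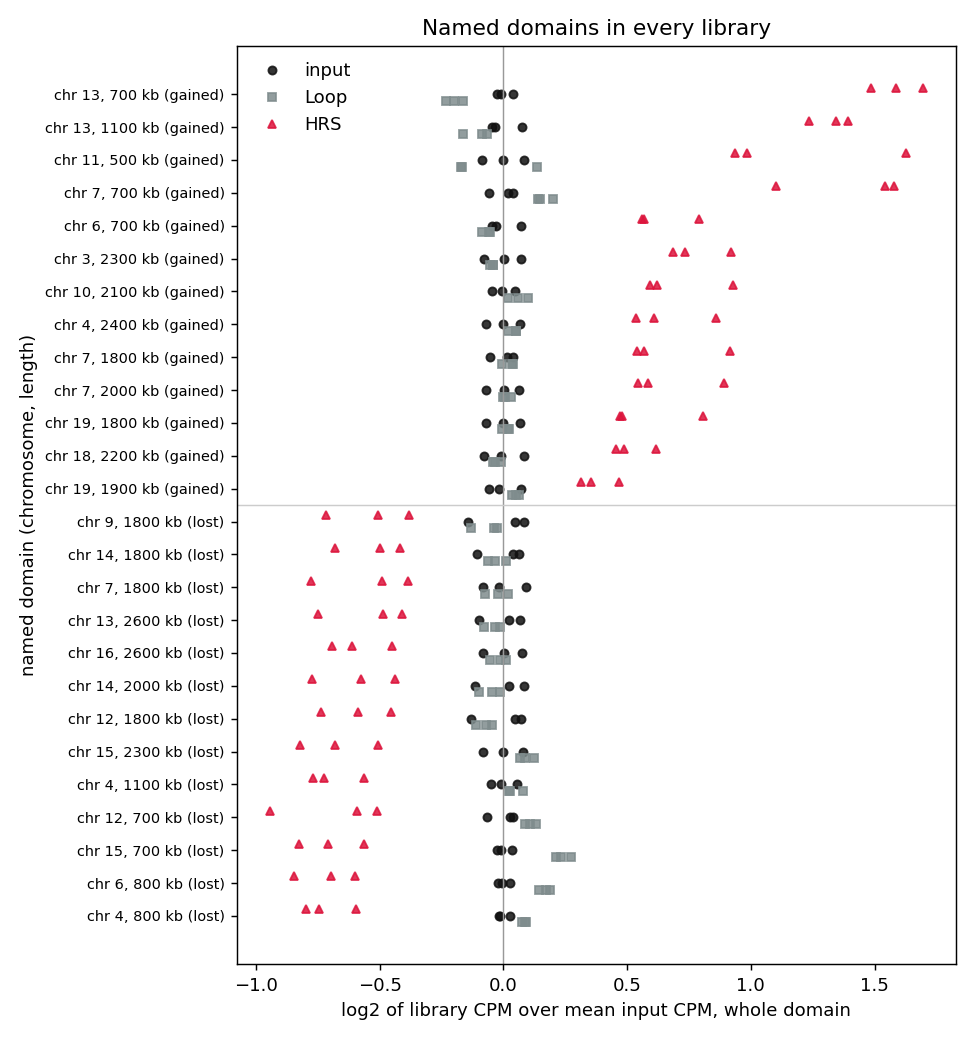
Log2 of each library's CPM over the mean input CPM (horizontal axis) for the 26 named domains (vertical axis, by chromosome and length), with HRS as red triangles, input as black circles and Loop as grey squares. All 3 HRS libraries lie right of every input in the 13 gained domains and left of every input in the 13 lost ones. The choice of domains from calls on these same libraries largely fixed this separation. In the highest gained domain HRS held 697 to 805 CPM and input 244 to 255.

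The longest lost domains were on chromosomes 16 and 13 (2600 kb each). The domain chr16:5300001-7900000 held 795, 889 and 750 CPM in HRS replicates 1, 2 and 3 and 1147, 1216 and 1278 CPM in the D0, D12 and D21 inputs. The Loop replicates held 1222, 1201 and 1170 CPM. HRS was below every input, at a mean log2 ratio of -0.39, and the only protein-coding gene placed was Rbfox1. The domain chr13:70800001-73400000 (mean -0.36) held 2 such genes, Irx1 and Irx2, homeobox genes of embryonic patterning. HRS replicates held 900, 951 and 750 CPM there and inputs 1180, 1283 and 1322 CPM, without overlap.

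The domain chr15:86200001-88500000 (2300 kb) was the deepest of the 8 longest, at a mean log2 ratio of -0.49, with 1052, 1186 and 954 CPM in HRS and 1593, 1682 and 1783 CPM in input. Its only placed protein-coding gene was Tafa5, which encodes a secreted protein of the nervous system. Hs3st4 alone was placed in chr7:130700001-132500000 (1800 kb, mean -0.36) and Lrtm1, a gene for a leucine-rich repeat membrane protein, in chr14:28900001-30700000 (1800 kb, -0.35). No protein-coding gene was placed in chr14:22900001-24900000 (2000 kb, -0.40) or chr9:28600001-30400000 (1800 kb, -0.35). In chr12:25900001-27700000 (1800 kb, -0.41) there were 3, the ubiquitin ligase gene Rnf144a and the interferon-inducible neighbours Rsad2 and Cmpk2.

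The strongest losses were in shorter domains. The domain chr4:130500001-131300000 (800 kb) held 392, 435 and 378 CPM in HRS and 649, 652 and 670 CPM in input, a mean log2 ratio of -0.53, with no protein-coding gene placed. The domain chr6:113700001-114500000 (800 kb, -0.52) held 418, 447 and 377 CPM in HRS and 674, 666 and 690 CPM in input, with 748 to 771 CPM in Loop. Among its genes were Slc6a11, a transporter of the neurotransmitter GABA, the plasma membrane calcium pump gene Atp2b2 and the histamine receptor gene Hrh1. The domain chr15:73600001-74300000 (700 kb) was also at -0.52, and chr4:152000001-153100000 (1100 kb), with the adherens junction gene Ajap1, at -0.51.

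One gene-dense cluster was among the strongest losses. The domain chr12:104900001-105600000 (700 kb) was a cluster of Serpina genes, protease inhibitors secreted mainly by the liver, with 16 protein-coding members. It held 193, 204 and 151 CPM in HRS, 278, 295 and 298 CPM in input and 308 to 318 CPM in Loop, at a mean log2 ratio of -0.51. At the window of Serpina1d, 1 of several near-identical copies whose tags are hard to tell apart, HRS held 3.91, 4.46 and 3.08 CPM and input 6.69, 7.12 and 7.63 CPM (log2 -0.72, SE 0.13, adjusted p = 0.00119). The window of Serpina3a, with more counts, held 39.5, 40.2 and 31.5 CPM in HRS and 58.6, 61.8 and 63.7 CPM in input (log2 -0.55, SE 0.07, adjusted p = 0.000136). By contrast Serpinc1, the antithrombin gene on chromosome 1, lay in a gained domain at a log2 ratio of 1.19 (SE 0.11, adjusted p = 2.36e-05).

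Gene lists differed in how often their members lay in domains. Of all 20151 protein-coding genes, 23.0% were in gained and 0.958% in lost domains. Histone genes were in gained domains in 64 of 70 cases and in lost ones in 0. The corresponding counts were 223 and 0 of 391 tRNA genes, and 62 and 0 of 150 small nucleolar and nuclear RNA genes. Genes of these RNA lists, and microRNA genes, had no own site and were counted only through matched neighbours. Their low counts in the sparse lost domains may come from that rule. The counts in gained and lost domains were 35 and 0 of 84 ribosomal protein genes and 19 and 0 of 54 splicing factor genes. They were 143 and 3 of 395 Zfp genes, most of which encode DNA-binding zinc finger proteins. Solute carriers, at 88 of 358 (24.6%), and microRNA genes, at 263 of 1102 (23.9%), lay near the gained share of all genes. In lost domains there were 8 solute carriers (2.23%) and 6 microRNA genes (0.544%). Members sit side by side, so they are not independent: 104 of the 223 tRNA genes were in the Hist1 domains of chromosome 13.

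Several clustered families were seldom in a domain. Olfactory receptors were in gained domains in 42 of 1420 cases and vomeronasal receptors in 24 of 623, with 0 in lost domains. Of 224 olfactory receptor genes placed by their own site, the window was higher for 23, lower for 16 (7.14%) and not called for 185. Over all protein-coding genes placed by their own site the window was higher for 55.1% and lower for 6.21%. Defensins (83 genes), keratins (55), kallikreins (38) and Hox genes (43) had 0 members in either kind of domain. The count was also 0 for the 686 segments of immunoglobulin and T cell receptor genes. Since 0 of these segments were placed by an own site, their count cannot tell whether they lie in domains. Of 9 keratin genes with their own site, the window of 1, Krt75, was lower in HRS (log2 -0.33, SE 0.06, adjusted p = 0.000934) and those of the other 8 were not called. Of 16 kallikrein genes 6 had a lower window, such as Klk1b8 at -0.45 (SE 0.07, adjusted p = 0.000502), and these 6 shared 3 windows.

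**Figure D5:**
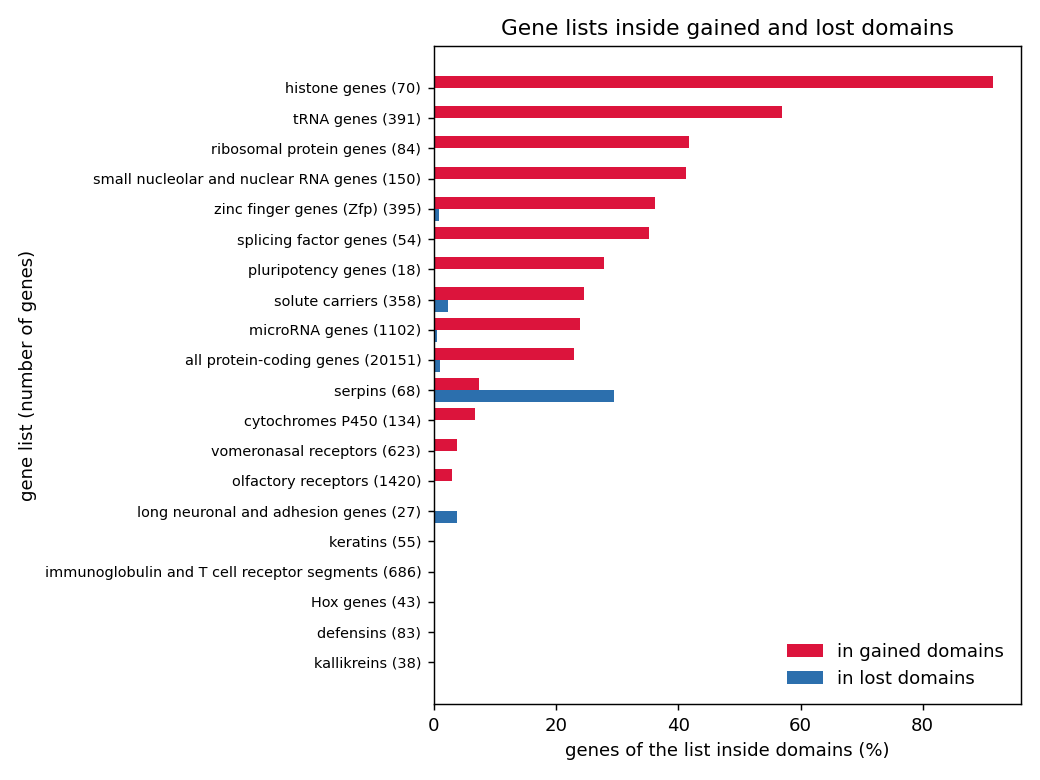
Percent of the genes of each list (horizontal axis) that lie in gained (red) or lost (blue) domains, with the list's size in parentheses (vertical axis; lists of at least 15 genes, chromosomes with genes placed). Histone genes reach 91.4% in gained domains, all protein-coding genes 23.0%, and serpins are the list with the highest percent in lost domains, 29.4%. Every serpin placed in a lost domain by its own site was in the Serpina cluster of chromosome 12, so that percent largely reflects 1 locus.

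At the windows of genes with their own site, members of the same lists were mostly higher in HRS, beside 55.1% of 5992 protein-coding genes overall (median log2 ratio 0.35). The window was higher for 11 of 12 histone genes (median 1.47, in 7 distinct windows), 18 of 19 ribosomal protein genes (0.69), 14 of 15 splicing factor genes (0.75) and 79 of 95 zinc finger genes (0.67), and lower for 0. The genes given as examples from here on were picked with their values known. The window of H4c4 held 149, 145 and 137 CPM in HRS and 36.4, 35.1 and 30.9 CPM in input (log2 2.25, SE 0.12, adjusted p = 3.81e-06), while that of the testis linker histone gene H1f7, apart from the clusters, was not called (log2 -0.09, adjusted p = 0.325) and came out lower with library totals as the scaling (-0.27). Hnrnpf, a gene for an RNA-binding splicing regulator, stood at 136, 119 and 181 CPM in HRS and 63.7, 63.0 and 58.7 CPM in input (log2 1.43, SE 0.19, adjusted p = 0.000166). Rps16, of the small ribosomal subunit, stood at 184, 171 and 221 CPM in HRS and 93.6, 86.8 and 84.1 CPM in input (log2 1.31, SE 0.18, adjusted p = 0.000224). In all 3 the HRS and input libraries were well apart.

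Of 9 genes of the pluripotency network with their own site, the window was higher for 7, lower for 1 and not called for 1. Over all placed protein-coding genes 55.1% of windows were higher and 6.21% lower. Of all 18 genes of this list 5 (27.8%) lay in gained domains and 0 in lost ones, beside 23.0% and 0.958% of all protein-coding genes. Nanog, a core factor of undifferentiated cells, held 139, 153 and 106 CPM in HRS and 68.3, 58.3 and 58.8 CPM in input (log2 1.27 with SE 0.14, adjusted p = 5.82e-05). Zfp42 stood at 71.1, 59.5 and 76.9 CPM against 43.3, 34.9 and 37.1 CPM (log2 1.03, SE 0.13, adjusted p = 0.000125). Pou5f1, which encodes Oct4, stood at 112, 97.1 and 124 CPM against 72.9, 66.7 and 67.5 CPM (log2 0.88, SE 0.14, adjusted p = 0.00063). For Nanog the third HRS library was the lowest of the group, unlike in most gained domains. Tcl1, a coactivator of AKT signalling, was lower at 39.3, 38.0 and 30.7 CPM against 52.0, 52.3 and 55.2 CPM (log2 -0.39, SE 0.07, adjusted p = 0.000922). The window of Klf4 was weakly higher (log2 0.32, adjusted p = 0.00865) and was no longer called without the D21 input (log2 0.24) or with library totals as the scaling (0.14).

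Hox genes, though outside the domains, had a higher window for 6 of 7 placed genes, beside 55.1% of all placed protein-coding genes. The 7 genes shared 4 windows, of which 3 were higher. Hoxa9 stood at 133, 111 and 190 CPM in HRS and 101, 89.2 and 90.8 CPM in input, with no overlap (log2 0.83, SE 0.22, adjusted p = 0.00969). Of 8 windows with genes of very long neuronal transcripts, 2 (25%) were higher and 3 (37.5%) lower. Over all placed protein-coding genes those shares were 55.1% and 6.21%. Nrxn3, a synaptic adhesion gene in a lost domain, stood at 26.4, 30.1 and 19.1 CPM in HRS and 34.8, 42.4 and 44.6 CPM in input (log2 -0.51, SE 0.11, adjusted p = 0.00385). The promoter windows of Rbfox1 (log2 -0.23, adjusted p = 0.0148) and Hs3st4 (-0.28, adjusted p = 0.0203), inside the long lost domains, were shallow losses that were not called when HRS replicate 1 was left out (-0.22 and -0.27), and Hs3st4 was also not called without the D21 input (-0.25).

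At 1 Mb, runs of adjoining called windows reached further than the domains. There were 127 gained runs and 81 lost runs of at least 2 windows. The longest gained runs spanned 7 Mb, at chr19:3000001-10000000 (mean log2 0.51) and chr7:25000001-32000000 (0.51), and next came 6 Mb at chr17:32000001-38000000 (0.47). The longest lost run spanned 6 Mb at chr12:26000001-32000000 (-0.35), which begins in the domain of Rnf144a and Rsad2. It was not lost throughout: the 100 kb window of Rps7 inside it was higher (log2 0.69, adjusted p = 0.00355). A called window of 1 Mb can thus hold 100 kb windows called the other way. By share of windows in domains, chromosome 11 had the most gained (22.8%) and chromosome 9 the most lost (16.8%), followed for lost by chromosomes 7 and 19 (13.6% each). Chromosomes 8 and 11 took a high share of the counts of HRS replicate 3. Without that library, 23.1% of the windows of chromosome 11 were in gained domains, still the most of these chromosomes, but its share in lost domains went from 5.38% to 16.1% and that of chromosome 8 from 4.31% to 10.9%. Chromosome 19 then had the most lost (18.0%) ahead of chromosome 9 (16.9%).

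Among the 5 highest called 1 Mb windows were both Hist1 windows of chromosome 13, at log2 1.39 (SE 0.08, chr13:23000001-24000000) and 1.26 (SE 0.08, chr13:21000001-22000000). In the other 3 a single fragment held a large share of the counts. In chr7:87000001-88000000 that share was 28.0%, and the log2 ratio fell from 1.31 to 0.49 without dominant fragments (adjusted p = 0.00203). In chr17:39000001-40000000, 1 fragment held 25.0% of the counts, and the log2 ratio without dominant fragments was 0.07 (adjusted p = 0.633). In chr8:20000001-21000000, 1 fragment held 68.7% of few counts (1.65 to 9.70 CPM in HRS, 0.938 to 1.18 in input), and the log2 ratio without dominant fragments was 0.05 (adjusted p = 0.92). The Loop replicates held 8.37, 18.7 and 0.955 CPM there, so Loop replicates 1 and 2 were also above every input. Of the 5 lowest, 3 were well counted: chr4:152000001-153000000 (log2 -0.60, SE 0.07), chr12:108000001-109000000 (-0.57, SE 0.06) and chr15:87000001-88000000 (-0.54, SE 0.07). The window chr12:108000001-109000000 held 399, 425 and 338 CPM in HRS and 578, 632 and 646 CPM in input, without overlap. The other 2 of the lowest, at chr1:85000001-86000000 and chr14:3000001-4000000, had at most 16.4 CPM in any HRS or input library and lost their call without the D21 input (log2 -0.44 and -0.51). The window of chromosome 14 also lost it without the D0 input (-0.67) or HRS replicate 2 (-0.70), and without dominant fragments (-0.76).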

How the data were processed

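StyI-cut genomic DNA was counted by MmeI tags in 3 HRS, 3 Loop and 3 input libraries, per the labels' protocols. The authors deposited whole-number counts per StyI fragment (chromosome, start, end, count). CASAVA 1.8.2 and the build mm9 are named in the submitters' processing notes, while how tags were aligned, and what was done with tags of more than 1 match, is not given in the sources used here. Tables of counts per repeat name were not used.

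Counts of 2871947 fragments on chromosomes 1 to 19 (median length 537 bp) were summed by midpoint in windows. HRS and input were compared with edgeR 4.0.16 in R 4.3.3 (glmQLFit, glmQLFTest, TMM, filterByExpr with a minimum count of 10, Benjamini-Hochberg adjusted p of 0.05), on these 6 libraries. Adjusted p-values printed in the text come from this test over all windows of that size. The SE of a log2 ratio is its size over the root of the F statistic. Depth was 38.3 to 61.0 M counts per library. Alternatives were other scalings, DESeq2 1.42.0, filters, thresholds, correction for fragment length, dominant fragments (over 20% of their window's count) left out, and each library left out.

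Named domains are the 8 longest and 5 strongest in each direction, and named 1 Mb windows the 5 highest and 5 lowest called. Named genes are those of the gene lists, and those at the strongest window, in named domains. For lost domains with at most 4 placed protein-coding genes, these are named, apart from items not reported here, a choice made after their values were seen, as was that of the other examples. Symbols starting with Rps6k, which are kinases, were taken out of the ribosomal list. Members and lists were chosen with earlier results of these data known. Genes of chromosome 18 are not analysed here. No mm9 annotation was used here, so a planned test of windows classed by gene starts was replaced by the description of windows by placed promoters.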

Additional observations from a re-analysis of the deposited data

How the results depend on the processing

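No paired analysis was possible because the input libraries carry no replicate numbers that match those of HRS. In 26 named domains no mean log2 ratio changed sign under any alternative run, and the windows of named genes and the named 1 Mb windows that were called kept their direction too. Scaling decided the counts of losses: with library totals there were 8057 lower windows of 100 kb, 203 gained and 545 lost domains, and with scaling within each chromosome 8452 lower windows of 100 kb (34.5% of calls higher), 717 lower windows of 1 Mb, 221 gained and 563 lost domains. At an adjusted p of 0.01 there were 2201 lower windows of 100 kb, 392 higher and 250 lower windows of 1 Mb, 213 gained and 131 lost domains. With a minimum fold added to the call there were 1749 lower windows of 100 kb, 322 higher and 126 lower windows of 1 Mb and 95 lost domains. Domains of at least 1 Mb numbered 62 gained and 54 lost, and runs of 1 Mb windows 127 and 81. With each library left out in turn, 100 kb windows numbered 4207 to 6660 higher and 2554 to 4728 lower, 1 Mb windows 366 to 690 higher and 268 to 515 lower, and domains 167 to 413 gained and 146 to 305 lost. The D12 input gave 2554 lower windows of 100 kb, 268 lower windows of 1 Mb, 217 gained and 146 lost domains when left out, and the D21 input 366 higher and 285 lower windows of 1 Mb and 167 gained domains; fewer inputs were then fitted. Correction for fragment length gave 363 gained and 267 lost domains, and together with leaving out HRS replicate 3, an alternative chosen after seeing the data, 399 and 320. The other counts, including those from DESeq2, stayed within 1.5 times the main count. Depth limits the windows with few counts named above.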
